A study of Mus musculus with 4 samples.

Results

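The 33 genes described here run the folding machinery of the endoplasmic reticulum (ER) and the unfolded protein response, and they were followed in 2 array experiments on mouse colon. Each gene was taken by its name among the non-control probes of the arrays, and all 33 were found, on 61 probes, out of 27083 genes and unnamed transcripts that the arrays carry. Both experiments used 2 dual-color whole mouse genome arrays on which 2 RNA samples competed. In the first, colon RNA of Rspo3 KO mice was set against RNA of their littermate controls, 1 mouse per channel, so that the 2 arrays are 2 biological pairs with the dyes reversed. The KO mice carried Myh11CreErt2 and Rspo3 fl/fl, in which tamoxifen deletes Rspo3 in cells that express the smooth muscle and myofibroblast gene Myh11, and the controls carried Myh11CreErt2 and Rspo3+/+. In the second, Axin2+ epithelial cells were set against Axin2- epithelial cells. The mice carried Axin2CreErt2 and a Rosa26-tdTomato reporter, and the cells were sorted by ESA (epithelial surface antigen) and tdTomato. These cells were pooled from 3 mice 24 h after tamoxifen and hybridised with the dyes both ways, which makes 1 biological replicate and allows no test. All mice were male, 6 to 8 weeks old and on a C57BL/6 background, all received tamoxifen at 4 mg per 25 g body weight in 200 µl corn oil, and the Rspo3 mice were examined 2 weeks later. The labels give distal colon for the Rspo3 pairs, while the methods speak of colon and, for one analysis, of colon epithelium.

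Proteins bound for secretion or for membranes enter the ER through the Sec61 channel and are folded there by Hspa5 (BiP), by Hsp90b1, by the sugar-binding chaperones Calr and Canx and by protein disulfide isomerases. When unfolded protein builds up, the sensors Ern1 (IRE1), Ern2 (its relative in mucosal epithelia), Atf6 and PERK switch on the unfolded protein response, in which spliced Xbp1, cleaved Atf6 and Atf4 raise chaperones and the machinery that disposes of misfolded protein, and in which Ddit3 (CHOP) marks lasting stress. Goblet cells and plasma cells, which secrete large amounts of mucin and of antibody, are the cells of the gut best known for their dependence on this machinery.

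None of the folding genes passed the test in the Rspo3 pairs or the fold bound on both arrays of either experiment. Values are log2 ratios, KO over control or Axin2+ over Axin2-, so that 0 is no difference and 1.5-fold is 0.58. None of the 32 members measured in the Rspo3 pairs passed limma's test (adjusted p under 0.05 over all genes, a mark that 0.222% of 15291 genes passed), and 2 (6.25%) had an unadjusted p under 0.05, as did 4.58% of all genes. None lay past 1.5-fold in the same direction in both pairs, which 0.824% of all genes did upward and 1.17% downward. Of 15775 genes in the sorted cells, 6.04% lay past 1.5-fold upward on both hybridisations and 5.57% downward, and 0 of the 33 folding genes did either. Sec61b, a small subunit of the Sec61 channel, has 1 probe, which was an outlier spot on the first Rspo3 array, so it was left out of that comparison, and its ratio in pair 2 was 0.03.

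On these arrays the sort could be checked on its gene and the deletion could not. Axin2 itself was higher in Axin2+ cells, at 1.35 and 1.295. Neither of the 2 Rspo3 probes stood well above background in pair 1, and in pair 2 the probe at chr10:29172742-29172800 (mm9) did in both channels, with a ratio of 0.17. Whether it lies in the deleted part is not given in the sources used here, so the KO samples are those labelled so. The paper itself reports, by qPCR, a strongly reduced Rspo3 level in this KO model 2 weeks after tamoxifen. Over all genes the 2 Rspo3 pairs did not track each other (Pearson's r = 0.03 across genes), while the 2 hybridisations of the sorted cells did (r = 0.92). Between 53.1% and 60.3% of gene spots were well above background in a channel, and of the 61 member probes 54 were so in all 8 channels and none was saturated. All 6 epithelial markers were measured in the sorted cells and 5 of 6 in the Rspo3 pairs, and the latter also held 5 of 5 fibroblast and 4 of 5 smooth muscle markers.

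**Figure D1:**
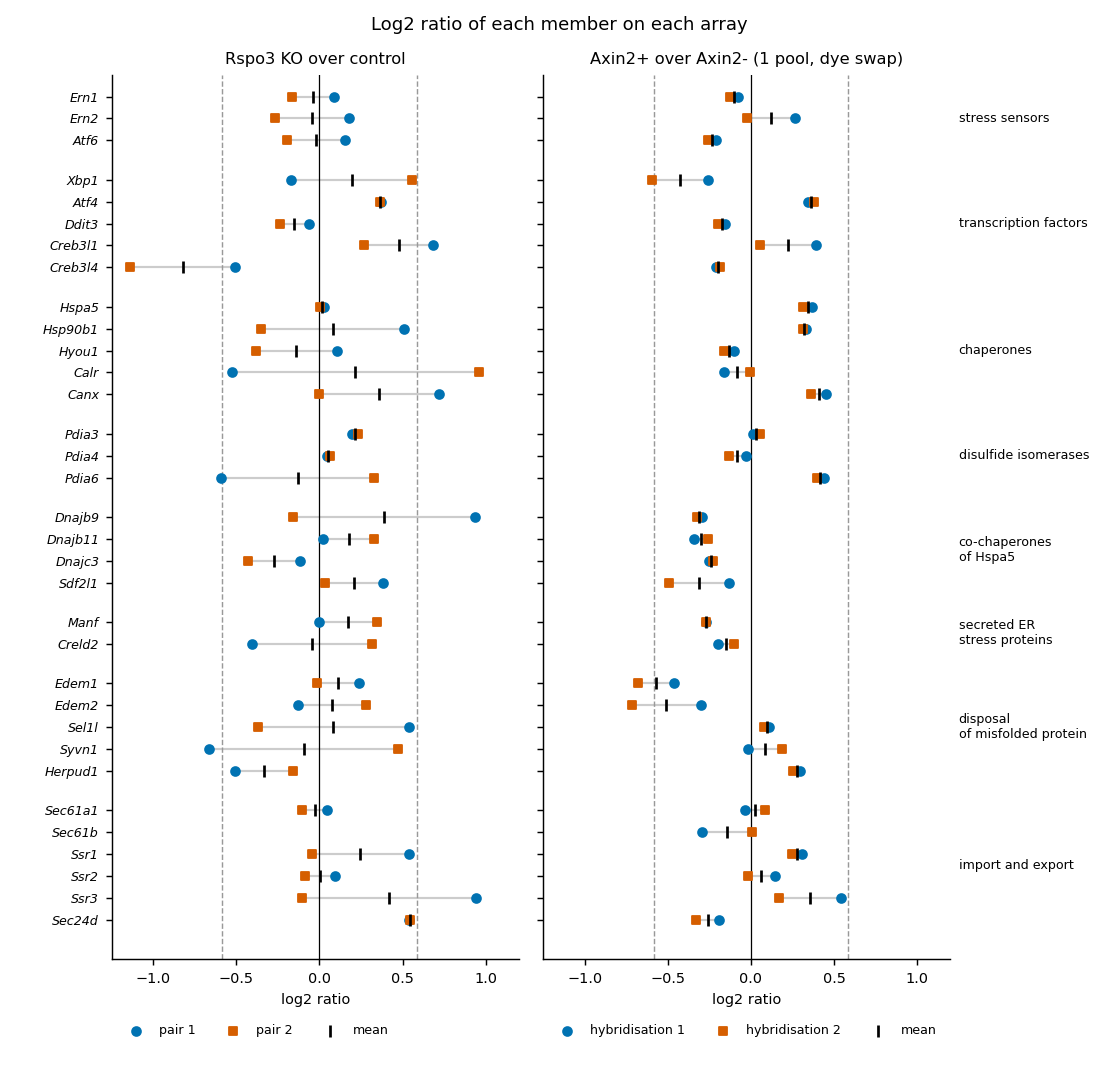
Log2 ratio of each member gene (rows, grouped by role) in Rspo3 KO over control (left, circle pair 1, square pair 2) and in Axin2+ over Axin2- cells (right, circle and square the 2 hybridisations of the same pool), with the mean as a tick and dashed lines at 1.5-fold. No gene has both points beyond the same dashed line, and the gap between the points of a gene has a median of 0.38 on the left, where Calr spans -0.52 to 0.96, and of 0.08 on the right. Sec61b has no ratio on the left.

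The ratios of the folding genes differed more between the 2 Rspo3 pairs than between the dye-swapped hybridisations. The median gap between the 2 values of a member was 0.38 in the Rspo3 pairs, near the 0.35 of all genes, and 0.08 in the sorted cells, against 0.12 for all genes. In both pairs 8 of 32 members (25%) were above 0 and 4 (12.5%) below, while 20 (62.5%) went opposite ways, and these shares were 20.28%, 23.83% and 55.89% over all genes. The median over the members was 0.09 in pair 1 and -0.01 in pair 2, where the medians of all genes were -0.002 and -0.02. Among the sorted cells, 11 of 33 members were above 0 on both hybridisations, 17 below 0 on both and 5 opposite, and the medians were -0.08 and -0.02. Of all genes, 40.91% were above 0 on both and 41.79% below. These counts rest on the loess step that removes the dye bias along the intensity range. When each array was only centred on its median, 0 of 33 members kept a direction on both hybridisations and 1 of 32 in the Rspo3 pairs, and the mean ratio in the sorted cells changed sign for Pdia3, Herpud1, Syvn1, Sec61a1 and Ssr2.

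**Figure D2:**
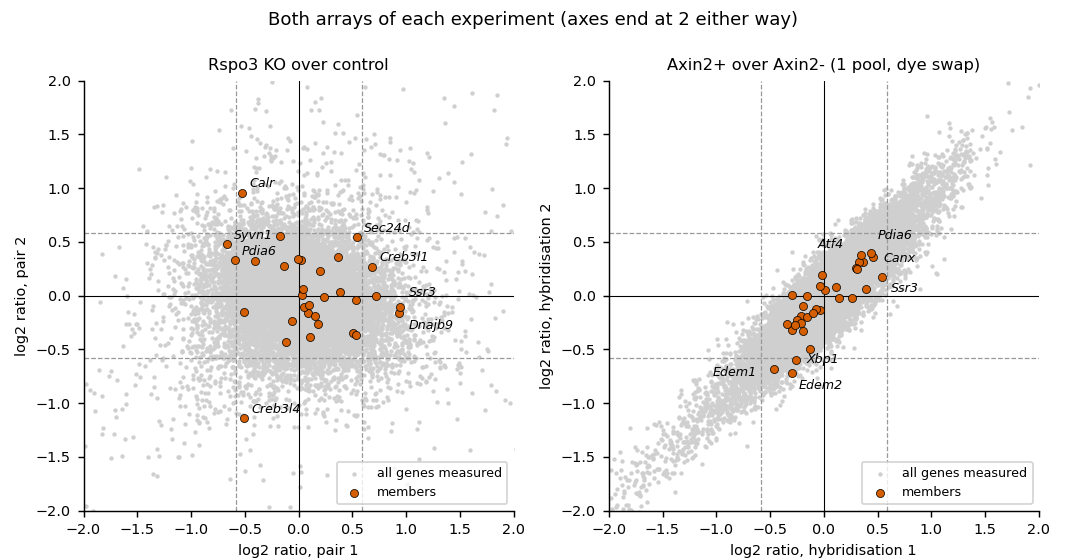
Log2 ratio on the first array (x) against that on the second (y) for all genes measured (grey) and the members (orange), in Rspo3 KO over control (left) and Axin2+ over Axin2- cells (right), with dashed lines at 1.5-fold and axes that end at 2 either way. On the left the members scatter over all 4 quadrants with Creb3l4 lowest, and on the right they lie along the diagonal inside the dashed square, except Xbp1, Edem1 and Edem2, which cross the line on the second hybridisation.

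The promoters of some of these genes carry sequence elements by which the response is known. These elements are shown because they group the members independently of the arrays. The ER stress response element (ERSE), bound by NF-Y and Atf6, was searched as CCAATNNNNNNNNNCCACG, ERSE-II as ATTGGNCCACG and the core of the unfolded protein response element (UPRE) as TGACGTG, on both strands of the 300 bases from 250 before to 50 after each start in RefSeq's promoter table (GRCm38.p6). The table holds 26 of the 33 members. ERSE matched in 8 of these 26 members (30.8%) and in 0.137% of the 27025 genes of the table. ERSE-II matched in 2 members (7.69%) and 0.0444% of all genes, and the UPRE core in 2 members (7.69%) and 2.22% of all genes. Since the members were listed as genes of this response, these shares are a description and no test. No match says only that these letters are absent from the window. The stretches before the start that hold an ERSE or ERSE-II are given 5′ to 3′ in the direction of the gene, with the bases of the motif in capitals, where CGTGG followed by ATTGG is an ERSE on the other strand.
Hspa5, chr2:34771918-34772058, plus strand: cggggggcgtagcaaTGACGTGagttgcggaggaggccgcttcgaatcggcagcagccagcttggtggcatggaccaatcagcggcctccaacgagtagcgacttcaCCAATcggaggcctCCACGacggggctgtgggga
Hsp90b1, chr10:86705518-86705671, minus strand: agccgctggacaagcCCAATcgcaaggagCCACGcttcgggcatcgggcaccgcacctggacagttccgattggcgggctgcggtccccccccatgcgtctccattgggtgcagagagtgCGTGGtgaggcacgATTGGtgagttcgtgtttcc
Calr, chr8:84847060-84847108, minus strand: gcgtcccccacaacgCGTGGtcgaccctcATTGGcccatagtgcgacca
Canx, chr11:50325785-50325833, minus strand: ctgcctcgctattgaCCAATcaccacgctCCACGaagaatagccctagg
Pdia6, chr12:17266476-17266524, plus strand: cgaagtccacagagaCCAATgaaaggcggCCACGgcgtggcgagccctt
Dnajc3, chr14:118937812-118937860, plus strand: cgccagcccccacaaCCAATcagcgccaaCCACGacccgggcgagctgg
Syvn1, chr19:6046517-6046565, plus strand: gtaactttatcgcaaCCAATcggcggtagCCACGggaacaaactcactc
Creld2, chr15:88819505-88819553, plus strand: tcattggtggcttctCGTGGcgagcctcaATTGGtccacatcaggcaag
Herpud1, chr8:94386362-94386402, plus strand: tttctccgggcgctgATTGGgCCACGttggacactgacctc
Hspa5 holds a UPRE core, which begins 157 bases before the start, and an ERSE, which begins 65 before it. Hsp90b1 holds 2 ERSE matches in opposite directions, beginning 212 and 107 bases before the start. The ERSE-II of Dnajb11 lies after the start, at bases 8 to 18, and the UPRE core of Sec24d begins 26 bases before it.

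**Figure D3:**
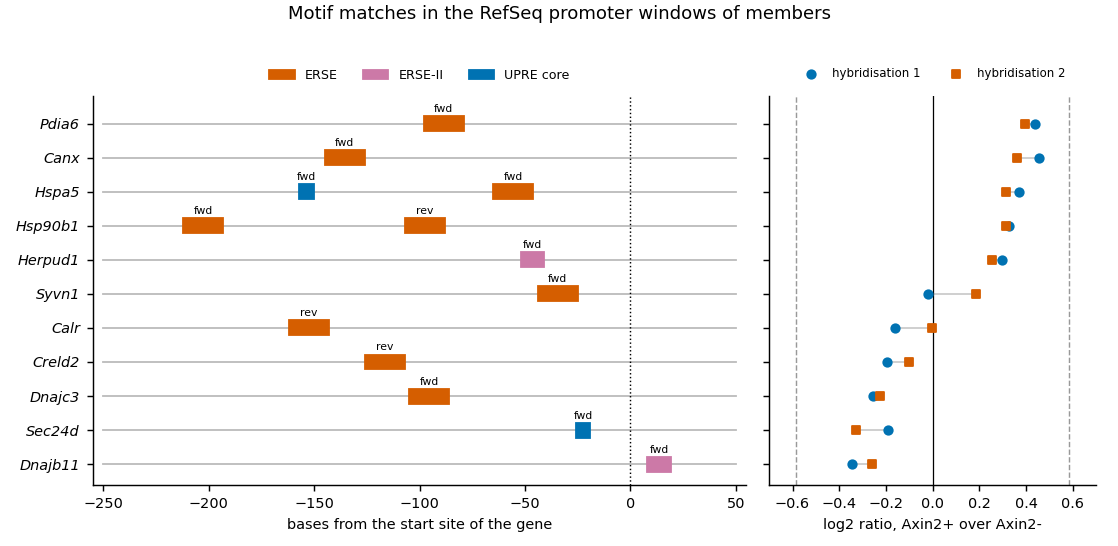
Left, matches to ERSE, ERSE-II and the UPRE core (boxes, fwd or rev for the strand relative to the gene) in the promoter windows of the 11 members that have one, by distance in bases from the start site (dotted line). Right, the log2 ratio of the same genes in Axin2+ over Axin2- cells on both hybridisations, with dashed lines at 1.5-fold, where Pdia6, Canx, Hspa5, Hsp90b1 and Herpud1 lie above 0 on both and Calr, Creld2, Dnajc3, Sec24d and Dnajb11 below.

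The stress sensors lay within 1.5-fold on all 4 arrays. Ern1, the kinase and nuclease that splices Xbp1 mRNA, had ratios of 0.09 and -0.17 in the Rspo3 pairs and of -0.08 and -0.12 in the sorted cells. Ern2, the form found in mucus-producing epithelium, had 0.18 and -0.27 in the Rspo3 pairs and 0.27 and -0.02 in the sorted cells. Atf6, which is cut in the Golgi to release a transcription factor, had 0.15 and -0.19 in the Rspo3 pairs and -0.21 and -0.26 in the sorted cells. Eif2ak3 (PERK), counted here among the other pathway genes, had 0.20 and -0.42 in the Rspo3 pairs and -0.13 and -0.38 in the sorted cells. All 4 sensors went opposite ways in the 2 Rspo3 pairs, and in the sorted cells Ern1, Atf6 and Eif2ak3 were below 0 on both hybridisations. The second Atf6 probe gave -0.21 and -0.28 in the sorted cells, close to the first.

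Among the transcription factors, Creb3l4 had the lowest ratio of all members in the Rspo3 pairs. Creb3l4, an ER-anchored factor related to Atf6, had log2 levels of 10.38 in KO and 10.89 in control in pair 1, and of 10.24 in KO and 11.37 in control in pair 2. The KO channel was thus the lower in both pairs, by ratios of -0.51 and -1.14, of which only the second is past 1.5-fold. That direction in both pairs rests on the loess step. When each array was only centred on its median, 0 of 32 members were below 0 in both pairs, and Creb3l4 kept the sign of its mean only. After loess its mean was -0.82 ± 0.25 (SE, n = 2), below all but 1.112% of genes, with an adjusted p of 0.677 by limma. Because this is the lowest mean of 32 members, its low rank is no separate result. Across the other settings that gave a test, the adjusted p of this gene lay between 0.0548, when all 4 arrays were fitted together with a dye term, and 0.99998. The error of the 4-array fit comes in part from the dye-swapped hybridisations of 1 pool, which are technical repeats. Creb3l4 was at -0.21 and -0.19 in the sorted cells. Its relative Creb3l1 (OASIS), which serves secretory capacity in goblet and bone cells, was above 0 on all 4 arrays. It was at 0.68 and 0.27 in the Rspo3 pairs, with an adjusted p of 0.9998 by limma, and at 0.39 and 0.06 in the sorted cells. When each array was only centred on its median, Creb3l1 kept the sign of its means, while 0 of 33 members were above 0 on both hybridisations.

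Xbp1, the factor whose spliced form drives expansion of the ER, had a ratio of -0.17 in pair 1 and 0.56 in pair 2. Sorted cells had it at -0.26 and -0.60, lower in Axin2+ cells on both hybridisations, and only Edem1 and Edem2 had a lower mean than its -0.43. Its probe does not tell spliced from unspliced Xbp1. Atf4, the factor translated when eIF2α is phosphorylated, was above 0 on all 4 arrays with little spread, at 0.37 and 0.36 in the Rspo3 pairs and at 0.34 and 0.38 in the sorted cells. Its mean in the Rspo3 pairs was 0.37 ± 0.23 (SE, n = 2), with an adjusted p of 0.9998 by limma. Ddit3, the target of Atf4 that is tied to cell death under stress, was below 0 on all 4 arrays, at -0.06 and -0.24 in the Rspo3 pairs and at -0.15 and -0.20 in the sorted cells. After loess, Atf4 and Ddit3 thus lay on opposite sides of 0 on each array, both within 1.5-fold. When each array was only centred on its median, their mean ratios kept these signs. In that setting, however, 0 of 33 members kept a direction on both hybridisations, and 0 of 32 were below 0 in both Rspo3 pairs.

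Of the 5 chaperones, 3 lay above 0 and 2 below 0 on both hybridisations of the sorted cells. Hspa5, the Hsp70 of the ER, whose promoter holds an ERSE and a UPRE core, had log2 levels of 13.15 and 13.18 in Axin2+ cells and of 12.78 and 12.87 in Axin2- cells. Its ratios were 0.37 and 0.32, a 1.27-fold higher level in Axin2+ cells. Hsp90b1 (Grp94), its Hsp90 partner, was at 0.33 and 0.31, and Canx, the membrane-bound lectin chaperone, at 0.45 and 0.36. The means of these 3 ranked between percentiles 80.44 and 85.49 of all genes, while Calr, the soluble lectin chaperone, was at -0.16 and -0.004 and Hyou1, the nucleotide exchange factor for Hspa5, at -0.10 and -0.16. With median centring the means of the first 3 stayed above 0 but shrank, to 0.08 for Hspa5, 0.02 for Hsp90b1 and 0.14 for Canx. The other 2 probes of Canx gave 0.23 and 0.04, and 0.01 and -0.15, so its ratio of 0.41 is that of its brightest probe.

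Hspa5 was even in both Rspo3 pairs, with ratios of 0.03 and 0.002 at log2 levels between 13.29 and 13.48 in all 4 channels. Hsp90b1 was at 0.51 and -0.35, Canx at 0.72 and -0.01 and Hyou1 at 0.10 and -0.38, each high in pair 1 relative to pair 2. The Hsp90b1 values are those of its dimmer probe, since the brighter has no value on the first Rspo3 array, and the brighter probe was at 0.04 in pair 2. Calr showed the widest gap, at -0.52 in pair 1 and 0.96 in pair 2. Its KO channel stood at 11.61 against 12.14 for control in pair 1, and at 12.65 against 11.69 in pair 2. The dimmer Calr probe went the opposite way, at 0.65 in pair 1 and -0.36 in pair 2, so the 2 probes of the gene disagree in sign on both arrays. Calr was picked for this after its values had been seen.

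The disulfide isomerases Pdia3 (ERp57, the partner of Calr and Canx), Pdia4 and Pdia6 had means between -0.13 and 0.21 in the Rspo3 pairs. Pdia3 was at 0.20 and 0.23 and Pdia4 at 0.04 and 0.06, each nearly equal in the 2 pairs, while Pdia6 was at -0.59 and 0.33. Pdia6 had the highest mean of all members in the sorted cells, 0.42, from ratios of 0.44 and 0.40. Its 3 dimmer probes gave means between -0.17 and 0.16, 1 of them below 0 on both hybridisations. Its mean fell to 0.10 with median centring, where Creb3l1 (0.27), Atf4 (0.24) and Canx (0.14) were among those above it, and to 0.11 as a mean over its probes. Pdia3 was at 0.01 and 0.05 and Pdia4 at -0.03 and -0.13, so of the 3 isomerases only Pdia6 stood away from 0.

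All 4 members grouped here as co-chaperones of Hspa5 were lower in Axin2+ cells on both hybridisations. The J proteins among the other pathway genes did not share this direction. Sec63 (0.70 and 0.49) and Dnajc1 (0.24 and 0.28) were above 0 on both hybridisations, and Dnajc10 (-0.12 and -0.33) was below. Dnajb9 (ERdj4), a J protein induced by Xbp1 that hands misfolded clients to disposal, was at -0.30 and -0.32, and its other 2 probes at -0.27 and -0.36 and at -0.26 and -0.22. Dnajb11 (ERdj3), a J protein that binds nascent chains, was at -0.34 and -0.26. Sdf2l1, which acts with Dnajb11, was at -0.13 and -0.49. Dnajc3 (p58IPK), an inhibitor of the eIF2α kinases and a co-chaperone, was at -0.25 and -0.23, although its dimmest probe was above 0, at 0.27 and 0.11. The secreted ER proteins Manf (-0.27 and -0.27) and Creld2 (-0.20 and -0.10) were also below 0 on both. In linear terms these 6 members were 1.11-fold to 1.24-fold lower in Axin2+ cells, with no error that covers animals. Their means kept this sign under the other settings of background, normalisation, source, filter and probe. With median centring, however, 0 of 33 members were below 0 on both hybridisations, so these 6 kept the sign of the mean only.

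The co-chaperones did not share a direction in the Rspo3 pairs. Dnajb9 was at 0.94 in pair 1 and -0.16 in pair 2, and its other probes repeated this on the same RNA, at 1.11 and -0.36 and at 0.49 and -0.03. Its mean of 0.39 had an adjusted p of 0.9998 by limma. Dnajc3 was below 0 in both pairs on each of its 4 probes, with ratios between -0.07 and -0.50, and Dnajb11 (0.02 and 0.33) and Sdf2l1 (0.38 and 0.03) were above 0 in both. Manf was at -0.00127 and 0.34 and Creld2 at -0.41 and 0.32.

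Among the genes that dispose of misfolded protein, the mannosidase-like Edem1 and Edem2, which pick glycoproteins for export to the proteasome, were the lowest of all members in the sorted cells. Edem1 was at -0.47 and -0.68, 1.49-fold lower in Axin2+ cells by its mean, and Edem2 at -0.30 and -0.72. Both were below 0 on both hybridisations, and past 1.5-fold on the second only. With the ratios of the extraction software Edem1 was past 1.5-fold on both, at -0.61 and -0.71, and Edem2 became the lower of the pair, at -0.583 and -1.24, a mean of -0.91 against -0.51. The second Edem1 probe lay close to it, at -0.51 and -0.45, and the other, the brightest in the Rspo3 pairs, was near even, at 0.02 and -0.18. Sel1l and Syvn1 (Hrd1), the core of the ubiquitin ligase that retrotranslocates clients, stayed close to 0, at 0.11 and 0.08 and at -0.02 and 0.19. Herpud1, which organises that ligase, was at 0.30 and 0.26, but its mean with median centring was -0.01. The means of the 5 disposal genes in the sorted cells thus ran from -0.57 for Edem1 to 0.28 for Herpud1.

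Among these 5, Herpud1 alone kept a direction in the Rspo3 pairs, at -0.51 and -0.16. Syvn1 was at -0.67 and 0.48, Sel1l at 0.54 and -0.37, Edem1 at 0.24 and -0.01 and Edem2 at -0.13 and 0.28. All 5 had an adjusted p of 0.9998 by limma.

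Among the genes of import and export, Ssr3 had the highest mean in the sorted cells and Sec24d in the Rspo3 pairs. Ssr1, Ssr2 and Ssr3 are subunits of the TRAP complex, which helps chains into the Sec61 channel. Ssr3 was at 0.54 and 0.17 in the sorted cells, Ssr1 at 0.31 and 0.25 and Ssr2 at 0.14 and -0.02. The mean of 0.35 for Ssr3 fell to 0.11 with median centring, and to 0.09 over its probes, where Ssr1 had 0.25, as it also did on the second hybridisation alone. Sec61a1, the channel itself, was at -0.03 and 0.09, and Sec61b at -0.29 and 0.01. Of the 5 Ssr1 probes 4 were above 0 by their means and 1 below, and of the 3 Ssr3 probes 2 above and 1 below. Sec24d, a coat protein of the vesicles that leave the ER, was at -0.19 and -0.33.

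Sec24d in the Rspo3 pairs had log2 levels of 9.997 in KO against 9.46 in control in pair 1, and of 10.37 against 9.82 in pair 2. Its ratios of 0.54 and 0.54 made the highest mean of all members, 0.54 ± 0.23 (SE, n = 2). That mean was higher than 97.4% of genes by rank but short of 1.5-fold, with an adjusted p of 0.9998 by limma. Because Sec24d was singled out as the highest of 32 members, its high rank is no separate result. Ssr3 was at 0.94 in pair 1 and -0.10 in pair 2, and its other probes gave 0.95 and 0.02 and 0.52 and -0.12. Ssr1 was at 0.54 and -0.05, Ssr2 at 0.09 and -0.09 and Sec61a1 at 0.05 and -0.10. Across all roles, the members past 1.5-fold were also counted on each array by itself. Past 1.5-fold in pair 1 were 6 members of 32 (18.8%, against 15.7% of all genes), namely Creb3l1, Canx, Dnajb9 and Ssr3 above and Pdia6 and Syvn1 below. In pair 2 there were 2 of 32 (6.25%, against 10.1% of all genes), Calr above and Creb3l4 below. No member passed in both pairs, where 0.824% of all genes passed upward in both and 1.17% downward. At shares this small, the lack of overlap among 32 members says nothing particular about these genes. Among the sorted cells, 0 of 33 members passed on the first hybridisation, as 15% of genes did, and 3 (9.09%) on the second, where 16% of genes did, namely Xbp1, Edem1 and Edem2.

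**Figure D4:**
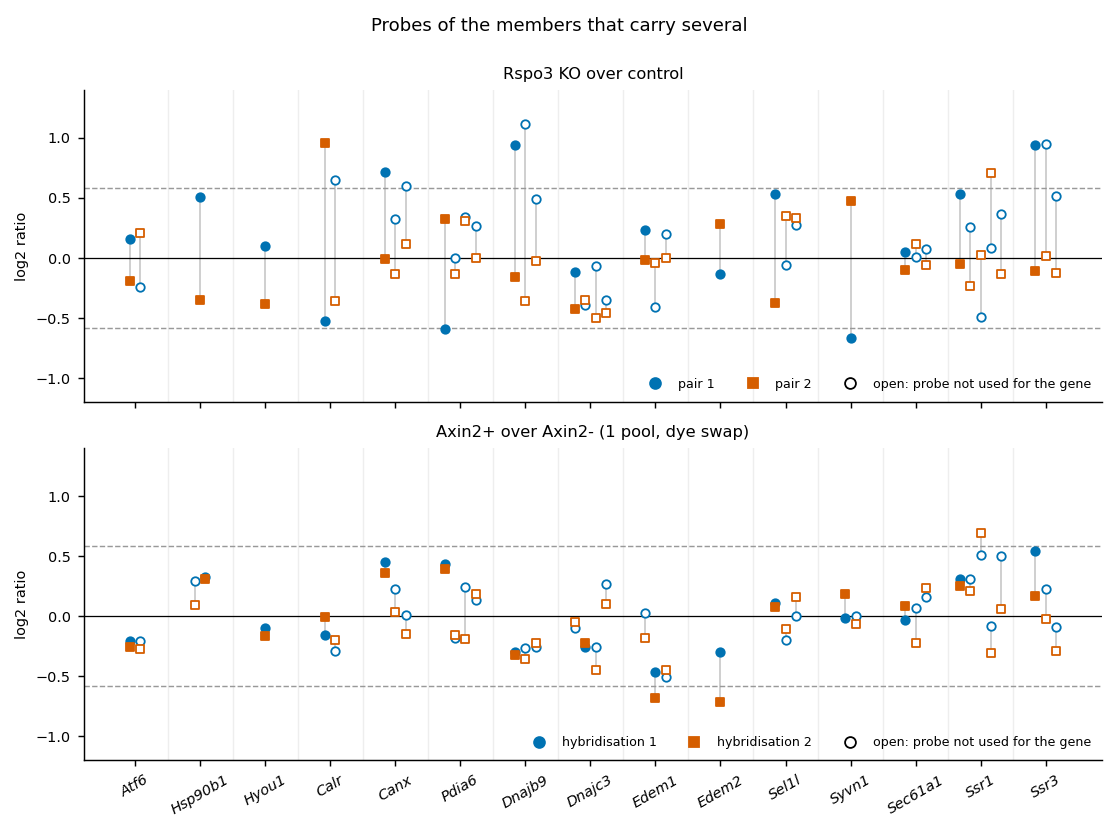
Log2 ratio of every probe that passed the filter for the members with several probes on the array, in Rspo3 KO over control (top) and Axin2+ over Axin2- cells (bottom), circle for the first array and square for the second, filled for the probe that stands for the gene and open for the others, with dashed lines at 1.5-fold. The 3 Dnajb9 probes and the 3 Ssr3 probes repeat their gap between the Rspo3 pairs, while the 2 Calr probes are mirror images.

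Probes of 1 gene share the RNA of each array, so they are no replicates of a condition, but they show how far a ratio depends on the probe. Of 13 members with several measured probes in the sorted cells, 5 had all probe means on 1 side of 0 and 8 had them on both. These counts were 7 and 4 of 11 in the Rspo3 pairs. Dnajc3 and Edem1 were represented by different probes in the 2 experiments, since the brightest probe was chosen in each, and Hsp90b1 was so because its brighter probe lacked a value in pair 1.

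The members whose promoter held an ERSE or ERSE-II were spread over both directions. Of these 10 genes, 5 were above 0 on both hybridisations of the sorted cells (Hspa5, Hsp90b1, Canx, Pdia6 and Herpud1), 4 were below 0 on both (Calr, Dnajb11, Dnajc3 and Creld2) and Syvn1 went opposite ways, with a median of 0.18. Of the 16 members with a promoter in the table and neither element, 5 were above 0 on both and 10 below, with a median of -0.16. With median centring these medians were -0.08 and -0.22, so that the first changed sign, and the gap between them narrowed. With the mean over the probes of a gene in place of the brightest probe, they were 0.07 and -0.16. The medians in the Rspo3 pairs were -0.01 for the 10 genes and 0.19 for the other 15 measured. In pair 1 alone they were -0.26 and 0.24, and in pair 2 alone 0.16 and -0.01. These medians are descriptions of groups with overlapping values, from -0.30 to 0.42 and from -0.57 to 0.36 in the sorted cells.

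A list of 61 other genes of the same pathways was read in the same way. The Rspo3 pairs measured 59 of them, 11 above 0 in both pairs and 3 below in both, with medians of 0.05 and 0.07 and none called by limma. Over all genes, 20.28% were above 0 in both pairs and 23.83% below. In the sorted cells all 61 were measured, 15 above 0 on both hybridisations and 36 below on both, where 40.91% and 41.79% of all genes were. The medians of the list were -0.13 and -0.12, beside medians of 0.02 and -0.03 over all genes. Kdelr3, a receptor that returns escaped ER proteins from the Golgi, was the only 1 of the 61 past 1.5-fold on both arrays. It was at 0.87 and 0.78 in the Rspo3 pairs, with an adjusted p of 0.518 by limma, and at -0.60 and -0.85 in the sorted cells.

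Several markers of goblet cells and all those of surface colonocytes lay farther from 0 than any folding gene in the sorted cells. Of 10 goblet cell markers 9 were below 0 in Axin2+ cells on both hybridisations and 6 past 1.5-fold, with medians of -1.28 and -1.05. The mucus protein genes Clca1 (-2.77 and -2.96), Zg16 (-2.75 and -2.65) and Fcgbp (-1.87 and -1.87) led them, with Tff3, Spink4 and Reg4, whereas Muc2, the gel-forming mucin, was at 0.30 and 0.34, and Spdef (-0.49 and -0.33), Atoh1 (-0.19 and -0.55) and Agr2 (-0.13 and -0.33) lay within the range of the members by their means. The summed level of the goblet list was 180300 to 182300 in Axin2+ cells and 373300 to 399300 in Axin2- cells. All 7 markers of surface colonocytes, led by Car4, Saa1 and Aqp8, were past 1.5-fold lower, with medians of -3.003 and -2.771, and 4 of 6 cycling and stem cell markers (Mki67, Top2a, Lgr5 and Smoc2) were past 1.5-fold higher, with medians of 1.14 and 1.133. Of 9 plasma cell markers, Xbp1 among them, 5 were measured, 4 below 0 on both hybridisations, and Prdm1, Tnfrsf17, Mzb1 and Irf4 were not. The medians of these 5, -0.26 and -0.60, are the values of Xbp1, itself a member, so they give no separate comparison. Jchain and Derl3 were dim, at mean log2 intensities of 6.28 and 6.56. The summed level of the list, which also includes Xbp1, was 3574 to 3990 in Axin2+ and 4876 to 5811 in Axin2- cells. The epithelial list had medians of 0.01 and 0.09, with Krt8 past 1.5-fold lower, and the 2 fibroblast, 2 smooth muscle and 4 immune cell markers measured had medians of -0.37 and -0.30, of 0.42 and 0.07 and of -0.15 and -0.18. What the change of goblet and surface cells contributes to the ratios of the folding genes was not tested.

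Lgr5 and Smoc2, markers of stem cells, and Jchain, a marker of plasma cells, were past 1.5-fold in both Rspo3 pairs, short of limma's threshold. Of 6 cycling and stem cell markers 4 were below 0 in both pairs and 2, Lgr5 and Smoc2, were past 1.5-fold lower in both, with adjusted p of 0.109 and 0.15 by limma. The summed level of 8 plasma cell markers was 12600 and 14480 in KO and 9740 and 8862 in control, with medians of 0.0003 and 0.69. That sum rests mostly on Jchain, Sdc1, Cd38 and the member Xbp1, at mean log2 intensities of 11.05 to 12.73. Prdm1, Tnfrsf17, Mzb1 and Derl3 were dimmer, at 7.48 to 8.50. Sdc1 was also bright in the sorted epithelial cells, at 10.17. Of the 8 markers 4 were above 0 in both pairs. Jchain, the joining chain of antibodies, was past 1.5-fold, at 0.75 and 1.12 with an adjusted p of 0.412 by limma. Derl3 (-1.35 and 0.82), Mzb1 (-0.39 and 1.004), Tnfrsf17 (-0.05 and 0.94) and Xbp1 (-0.17 and 0.56) of this list went opposite ways. The 6 goblet markers measured had medians of 0.17 and -0.20, with 1 above 0 in both pairs and 2 below, at a summed level of 32480 and 34130 in KO and 30390 and 40170 in control. The 3 surface colonocyte markers measured had medians of 0.70 and -0.33. Of 3 immune cell markers measured 1 was above 0 in both pairs and 1 below, and medians were -0.23 and 0.06, with Adgre1 past 1.5-fold higher in both. Of 5 epithelial markers, with medians of 0.10 and 0.04, only Cdx2 passed limma's test, at 2.33 and 1.91 with an adjusted p of 0.0236, and Axin2 was at -0.45 and -0.26. The fibroblast and smooth muscle lists had medians of 0.29 and 0.43 and of 0.26 and 0.13. The part of these cells in the ratios of Sec24d, Creb3l1 and Creb3l4 was not tested, and fewer cells of a type and less RNA per cell cannot be told apart.

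**Figure D5:**
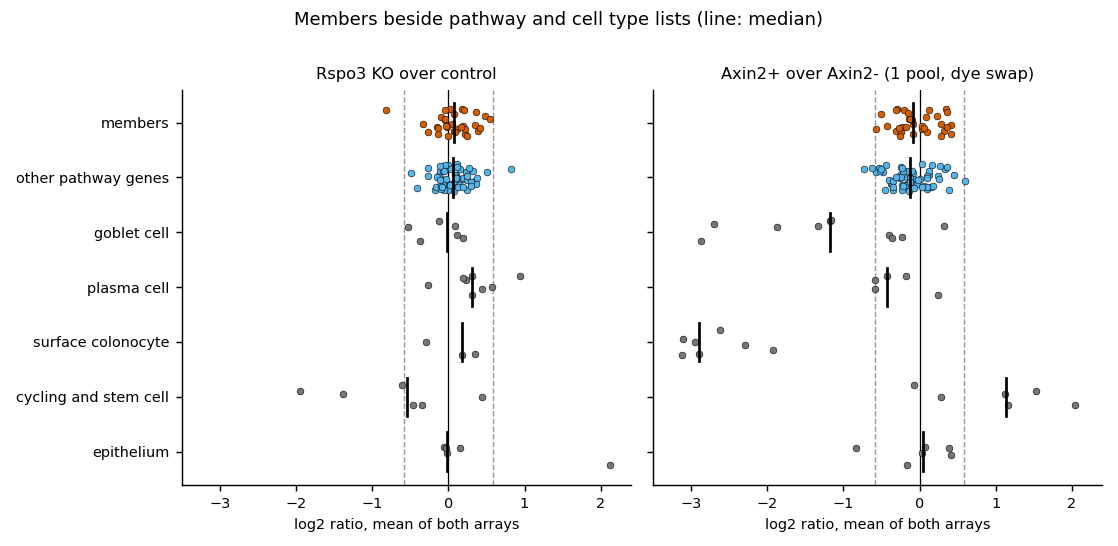
Log2 ratio, mean of both arrays, of the members, of other genes of the same pathways and of cell type marker lists (points are genes, the line is the median of a list), in Rspo3 KO over control (left) and Axin2+ over Axin2- cells (right), with dashed lines at 1.5-fold. In the sorted cells the members stay between -0.57 and 0.42, while goblet and surface colonocyte markers reach below -2 and cycling and stem cell markers above 1.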

How the data were processed

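Expression was measured on 4 dual-color Agilent arrays, 2 for Rspo3 KO against control colon and 2, a dye swap of the same RNA, for Axin2+ against Axin2- cells. The authors read the scanned images with Agilent Feature Extraction 11.5.1.1 and deposited, for each spot, linear mean and background intensities of each dye and the software's log10 ratio of the dyes (red over green). The value table of the series holds the same deposited log10 ratios. Samples were grouped by their labels.

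From the intensities, the background was corrected by limma 3.58.1 (R 4.3.3) with normexp and an offset of 50, background outliers being kept out of its fit, and log2 ratios had their dye bias removed array by array with loess, were turned to KO or Axin2+ on top and were averaged over the spots of a probe without control and outlier spots (443 to 510 per Rspo3 array, 124 to 131 per Axin2 array). The offset pulls ratios of dim probes toward 0. The brightest probe stood for a gene and had to be well above background, in 1 channel or both, on each array. Levels are log2 intensities after loess and Aquantile scaling. The Rspo3 pairs were tested with limma (lmFit, eBayes, n = 2) with Benjamini-Hochberg adjustment over all genes. The fit was tested on simulated data whose planted changes were larger than the mean ratio of any member. That simulation therefore does not cover changes of the size seen in the members. With 1 pool, the sorted cells have values and no test. The number of arrays limits the precision.

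Probes were named by accession through RefSeq's gene table (GRCm38.p6), and 56 of the 61 member probes matched that way. Genes were described by a rule that takes each member, those past 1.5-fold on both arrays or past the test in full, and the sensors and transcription factors with both arrays, and from the other pathway genes and the marker lists (goblet, plasma, surface colonocyte, cycling and stem, epithelium, fibroblast, smooth muscle, immune cell, targeted or sorting gene) those past 1.5-fold on both arrays. The planned grouping by a KDEL-like ending of the protein was not made. The members and lists were chosen with earlier results of these data known. Labels and methods differ on the RNA extraction (TRIzol or a column kit). Alternatives varied the background, the normalisation, the source of the ratios, the filter, the probe rule, the arrays fitted and the fold.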

Additional observations from a re-analysis of the deposited data

How the results depend on the processing

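The fit is paired as it stands, since each ratio sets a KO mouse against its control on 1 array. No paired analysis was possible because, beyond these ratios, the replicate number adds no further block. The number of members called by limma in the Rspo3 pairs was 0 under all 11 alternatives, while the calls over all genes ran from 0 without the filter on dim probes (1194 at an unadjusted p under 0.05) to 220 with 4 arrays and a dye term. With each array alone, the members past 1.5-fold numbered 1 to 4 upward and 1 to 2 downward in the Rspo3 pairs, and 0 to 3 downward in the sorted cells, and the median over members ran from -0.00887 to 0.0900 in the Rspo3 pairs and from -0.0766 to -0.0219 in the sorted cells. With 4 arrays and a dye term, where the fold was read from the fitted ratio and not from both arrays, 1 member, Creb3l4, was past 1.5-fold lower, with the same mean ratio of -0.82. With the software's log ratios, and with the equal value table, 1 member, Edem1, was past 1.5-fold lower in the sorted cells. Median centring moved the median of the sorted cells to -0.19. The cause was not tested. Ratios of single members moved by at least the SD of the 2 arrays 18 times in the Rspo3 pairs and 79 times in the sorted cells, 27 of all these under median centring. Signal over background limits the dim probes: 56 of 61 member probes passed in the Rspo3 pairs and 59 in the sorted cells.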
